A study of Mus musculus with 4 samples.

Results

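The 5 enzyme genes of eicosanoid synthesis (Alox5, Alox5ap, Ltc4s, Ptgs1 and Hpgds) and a cytokine and receptor pair (Il25 and Il17rb) were followed through single pancreas cells of mice with repeated pancreatitis. The 7 genes were listed by name, as genes known from tuft cells, and all 7 were found among the 32288 features of the count tables. The study asks what marked acinar cells become during injury: EYFP-positive cells were sorted from the pancreas of 4 mice of genotype Ptf1aCre-ERTM;ROSAYFP/+, backcrossed into CD-1. In these mice a tamoxifen-inducible Cre under Ptf1a, an acinar transcription factor, turns on EYFP, so the marked population is limited to cells that had used Ptf1a when tamoxifen was given and to their descendants. Every mouse received tamoxifen by gavage 2 weeks before injury and was 10 weeks old when injury began. Caerulein, a peptide that overstimulates acinar cells, was injected 2 times a day on 5 days of each week with 2 days of recovery, for 2 weeks in 2 mice and for 4 weeks in the other 2 mice. Uninjured mice were not analysed here, so the levels describe injured pancreas only.

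Eicosanoids are signalling lipids made from arachidonic acid. In the leukotriene branch, the 5-lipoxygenase Alox5 works with the membrane protein Alox5ap, which presents the substrate to it, and Ltc4s joins the product to glutathione to give leukotriene C4, the parent of the cysteinyl leukotrienes. In the prostaglandin branch, the cyclooxygenase Ptgs1 makes prostaglandin H2 and the haematopoietic prostaglandin D synthase Hpgds turns it into prostaglandin D2. Tuft cells are chemosensory epithelial cells that depend on the transcription factor Pou2f3. In the intestine they are a main source of the cytokine Il25, which acts through a receptor containing Il17rb on innate lymphoid cells and starts a type 2 immune response, and they also release cysteinyl leukotrienes and prostaglandin D2.

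The promoters are shown because these genes are high together in tuft cells and Pou2f3 belongs to the POU family. Several members of that family bind the octamer ATGCAAAT, and binding by Pou2f3 was not tested here. RefSeq windows of build GRCm38.p6 were matched for 5 of the 7 genes, Alox5, Ltc4s, Ptgs1, Hpgds and Il17rb. In the 250 bases before the RefSeq start, the octamer was found on either strand in 1 of the 5 members, Hpgds, and in 526 of all 32851 windows (1.60%). Part of the window lies in an exon of the GENCODE M21 annotation for Ltc4s (84 bases) and Hpgds (178 bases). The Hpgds match begins 174 bases before the RefSeq start and lies on the gene's strand. It falls at the beginning of that exon, which starts upstream of the RefSeq start, at position 65144908 of chromosome 6. The match with 10 bases on each side is printed, with the octamer in capitals, beside the 250 bases before the start of Alox5 and of Ptgs1, the entry enzymes of the 2 branches, in which these letters were not found. Capitals are used for the octamer only.
Hpgds, chr6:65144887-65144914, minus strand: tttactctttATGCAAATacgttggact
Alox5, chr6:116461179-116461428, minus strand: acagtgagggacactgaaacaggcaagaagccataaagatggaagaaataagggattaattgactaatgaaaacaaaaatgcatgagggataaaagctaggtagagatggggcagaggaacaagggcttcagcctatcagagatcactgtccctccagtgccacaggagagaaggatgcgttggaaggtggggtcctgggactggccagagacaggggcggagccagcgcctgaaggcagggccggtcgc
Ptgs1, chr2:36230176-36230425, plus strand: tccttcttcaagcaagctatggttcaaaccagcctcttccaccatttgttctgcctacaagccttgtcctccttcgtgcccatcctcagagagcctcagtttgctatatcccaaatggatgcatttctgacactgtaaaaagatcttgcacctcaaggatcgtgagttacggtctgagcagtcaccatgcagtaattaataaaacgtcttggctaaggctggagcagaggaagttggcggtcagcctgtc

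The tables held 21140 cells. The authors named 13362 of them, their EYFP-positive set, as 8 cell types, and 2586 tuft and enteroendocrine cells were further named as 9 subtypes. Tuft cells numbered 83 in 2-week mouse 1, 665 in 2-week mouse 2, 212 in 4-week mouse 1 and 320 in 4-week mouse 2. They were deep, with a median of 14809 to 20481 unique molecular identifiers (UMIs, counted RNA molecules) per cell. Tuft cells made up 18.5% of the typed cells of 2-week mouse 2, which stood apart from 2-week mouse 1 (2.78%), 4-week mouse 1 (7.53%) and 4-week mouse 2 (8.05%). Of 21068 cell barcodes, 67 occurred in more than 1 mouse. Tuft markers were present under the Tuft label: Pou2f3 was at 215 ± 12.1 CPM (the gene's UMIs per 1000000 UMIs of the summed cells; SD, n = 4 mice) and had a UMI in 92.4% of Tuft cells on average, the ion channel gene Trpm5 was at 718 ± 141 CPM, and all 16 tuft markers were detected.

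The leukotriene genes were at their highest in Tuft cells in 4 of 4 mice, compared with every other deposited type of at least 20 cells, as were the other 4 members. The same held for 18.8% of 7944 genes with at least 10 CPM in Tuft cells. Alox5 was at 461 and 481 CPM in the 2-week mice and at 386 and 513 CPM in the 4-week mice, and 94.4% to 100% of Tuft cells had at least 1 UMI. Among MucinDuctal cells, the mucin-producing duct-like cells that were the most numerous type, Alox5 was at 1.16, 3.35, 0.724 and 0.643 CPM in the same order of mice. The values of the 4 mice lie close together in Tuft cells and far above those in MucinDuctal cells, with a ratio between 144 and 798.

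Alox5ap was at 2891 and 2504 CPM in Tuft cells of the 2-week mice and at 2713 and 3141 CPM in those of the 4-week mice. In MucinDuctal cells it was at 1.39 to 10.1 CPM, 247-fold to 2079-fold lower. Ltc4s, the synthase that commits the pathway to leukotriene C4, was at 2331 and 2256 CPM in the 2-week mice and at 2309.8 and 2878 CPM in the 4-week mice. Every one of the 1280 Tuft cells had at least 1 UMI of Ltc4s. Ltc4s was also the member with the highest level outside Tuft cells: in Tuft/EEC.Progenitor cells it was at 979, 887 and 1114 CPM in the 3 mice with at least 20 such cells (2-week mouse 2 and both 4-week mice), which is 43.4%, 38.4% and 38.7% of Tuft cells of the same mice.

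The prostaglandin D2 genes were also at their highest in Tuft cells in 4 of 4 mice. Ptgs1 was at 182 and 259.8 CPM in Tuft cells of the 2-week mice and at 249.6 and 268 CPM in those of the 4-week mice, and 89.6% to 93.1% of the cells had a UMI. Hpgds was at 244 and 313 CPM in the 2-week mice and at 260.1 and 304 CPM in the 4-week mice. For both genes 2-week mouse 1, which gave the fewest Tuft cells, was the lowest of the 4. Over MucinDuctal cells the ratio was 41.0 to 132 for Ptgs1 and 99.1 to 296 for Hpgds in the 3 mice other than 2-week mouse 1, where MucinDuctal cells held only 3 Hpgds UMIs.

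Il25 was at 107 and 144 CPM in Tuft cells of the 2-week mice and at 146 and 209 CPM in those of the 4-week mice. After 2 weeks 60.2% and 58.5% of the cells had a UMI of Il25, and after 4 weeks 51.9% and 62.2% did. In the other types Il25 reached at most 6.84 CPM. In Acinar cells, which should lack it and had a median of 27362.5 UMIs, 0.137% to 1.46% of the cells had a UMI. In Ductal-like cells of 2-week mouse 1 the level of 6.84 CPM came from 9 UMIs in a single cell of 38. The next highest, 6.10 CPM in Acinar/MucinDuctal cells of 4-week mouse 2, came from 40 UMIs spread over 37 of 1012 cells. In EEC cells, the enteroendocrine (hormone-producing) cells, 2 UMIs were counted over the 4 mice.

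Il17rb, the receptor chain for Il25, was itself at its highest in Tuft cells, at 28.7 and 42.0 CPM in the 2-week mice and at 37.0 and 34.7 CPM in the 4-week mice, with a UMI in 38.2% to 48.9% of cells. The next type was Ductal-like in each of the 4 mice, at 8.36 and 3.75 CPM after 2 weeks and at 4.37 and 6.11 CPM after 4 weeks, 3.43-fold to 11.2-fold below Tuft cells. A UMI of Il17rb was found in 28.9%, 14.3%, 8.70% and 13.6% of Ductal-like cells in that order of mice. In Acinar cells the share was 0.131% to 1.37%, and the values do not overlap. The median depth over all mice was 28570 UMIs in Ductal-like and 27362.5 UMIs in Acinar cells, but 8889 UMIs in Ductal-like cells of 4-week mouse 1. The numbers are small, since the Ductal-like values rest on 11, 9, 2 and 3 UMIs. No test was made between types, since how the authors assigned them is not given in the sources used here and the members' counts may have entered.

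**Figure D1:**
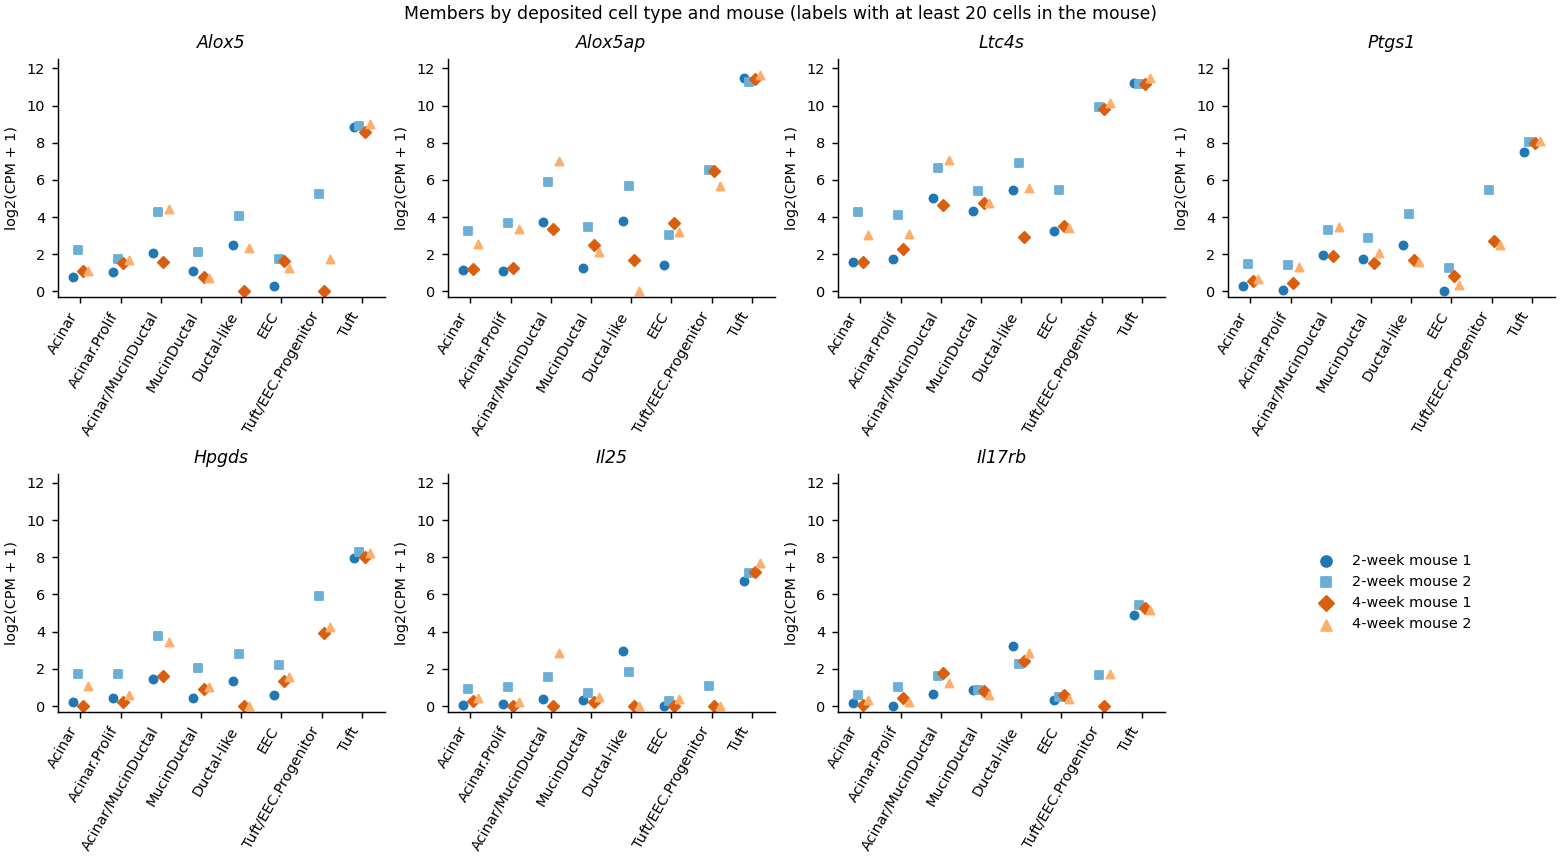
Level of each gene as log2(CPM + 1) of the summed counts, by deposited cell type (horizontal axis) and mouse (points, coloured by duration of injury), for types with at least 20 cells in the mouse. All 7 genes are highest in Tuft cells in each mouse and Ltc4s is next highest in Tuft/EEC.Progenitor cells in 3 mice, at 887 to 1114 CPM.

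Low levels outside Tuft cells differed between mice. The 7 genes summed to 4.51 and 36.1 CPM in Acinar cells of the 2-week mice and to 5.09 and 15.4 CPM in those of the 4-week mice. The mice had the same order for 13 tuft markers in Acinar cells (9.24, 76.1, 13.9 and 24.2 CPM), a sum without Sox9, Krt18 and Vil1, which other epithelial cells also express. With those 3 included the sums were 495, 648, 323 and 474 CPM and the order differed. In MucinDuctal cells the 7 genes summed to 66.4 CPM in 2-week mouse 2, again the highest, and to at most 35.4 CPM in the other mice. That mouse also had the largest share of Tuft cells. In Acinar/MucinDuctal cells, however, 4-week mouse 2 was the highest for Ltc4s (32.0, 97.8, 23.7 and 134 CPM). The part of RNA from outside the cell in these low values was not tested. In Tuft cells the 7 genes summed to 5999.6 to 7348 CPM.

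Macrophages and mast cells also make leukotrienes and prostaglandin D2, so their markers were read in Tuft cells. The 10 macrophage markers summed to 13.4 to 129.9 CPM in Tuft cells and none was at 0. Of 9 mast cell markers, 8 were at 0 UMIs in all Tuft cells. The ninth, the receptor kinase gene Kit, was at 183 ± 26.6 CPM (SD, n = 4) with a UMI in 85.3% to 91.9% of Tuft cells. Of 6 eosinophil markers 4 were at 0, while the lectin gene Siglecf was at 124 ± 46.5 CPM with a UMI in 47.5% to 67.8% of the cells. Of 5 basophil markers 4 were at 0. The part of macrophages in the member levels was not tested. Levels of members in macrophage-like cells, and in an unnamed cluster with all 10 macrophage markers raised, are given further on for the cells without a deposited type.

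Within the Tuft label, levels differed between the deposited subtypes. In 6 of the 7 genes the level was higher in Tuft-3 than in Tuft-2 cells in 4 of 4 mice, by 0.11 to 0.45 on average on the log2 scale. The same held for 21.3% of 7838 genes with at least 10 CPM in these cells. Some of these steps are near ties, as for Alox5 in 4-week mouse 1, at 413 CPM in Tuft-3 and 411 CPM in Tuft-2 cells, and for Il25 in that mouse, at 160.4 and 159 CPM. The count was 5 of 7 when each cell was given equal weight or when cells under 3000 UMIs were left out. Hpgds had the largest mean step (0.45), though not the largest in each mouse, at 307, 344, 309 and 350.4 CPM in Tuft-3 cells against 198, 282, 240.4 and 246 CPM in Tuft-2 cells. Those values do not overlap, and the ratio was 1.22 to 1.55.

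Ptgs1 was the exception. After 2 weeks it was lower in Tuft-3 cells (173 and 221 CPM) than in Tuft-2 cells (219.8 and 311 CPM), and after 4 weeks it was slightly higher (275 and 301 CPM against 256 and 270.5 CPM). The direction was the same in both mice of each time point. Opposite signs of this kind were found for 7.48% of 7838 genes with at least 10 CPM. Whatever the sign, the ratio did not overlap between time points for 4 of the 7 members, beside 36.5% of those genes.

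Tuft-1 cells reached 20 in 2-week mouse 2 (166 cells) and 4-week mouse 2 (26 cells). In both, 6 of the 7 genes were lower in Tuft-1 than in Tuft-2 cells, as were 38.0% of 7846 genes with at least 10 CPM there. Alox5 was at 294 and 133 CPM in Tuft-1 cells, 1.75-fold and 4.03-fold below Tuft-2 cells. Il17rb was at 17.8 CPM in 2-week mouse 2, 2.58-fold below. In 4-week mouse 2 it rested on 3 UMIs in 26 cells (7.68 CPM, against 29.8 CPM in Tuft-2 cells), too few for a ratio. The exception was Hpgds, at 364 and 312 CPM in Tuft-1 cells against 282 and 246 CPM in Tuft-2 cells. Tuft-1 cells thus had near the full Tuft-3 level of Hpgds (106% and 89.2%) with 44.0% and 30.5% of the Tuft-3 level of Alox5ap. Ptgs1 was at 111% of its Tuft-3 level in 2-week mouse 2 but at 48.5% in 4-week mouse 2. As between types, no test was made between subtypes, since the members' counts may have entered the labels.

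In the cells labelled MucinDuctalProgenitor Ltc4s was nearer to its Tuft-3 level than the other members were. Of these 156 cells, 148 carried the type Tuft/EEC.Progenitor and 8 the type Tuft. Ltc4s was at 1024 CPM in 2-week mouse 2 and at 1724 CPM in 4-week mouse 2, with a UMI in 98.3% and 100% of 118 and 20 cells. These are 36.2% and 53.5% of the Tuft-3 level of the same mice, and 24.4-fold and 66.5-fold the MucinDuctal level. Alox5ap was at 99.8 and 79.6 CPM, which is 2.94% and 2.23% of Tuft-3 cells but 9.86-fold and 24.1-fold the MucinDuctal level.

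The prostaglandin D2 genes stood between these extremes in 2-week mouse 2, and in 4-week mouse 2 with 4 cells typed Tuft included. Hpgds was at 62.9 and 63.0 CPM (18.3% and 18.0% of Tuft-3, and 19.9-fold and 61.2-fold the MucinDuctal level). Ptgs1 was at 46.9 and 43.1 CPM (21.2% and 14.3% of Tuft-3, and 7.40-fold and 13.4-fold the MucinDuctal level). Each of the 5 enzyme genes was thus above MucinDuctal cells in 2-week mouse 2, where Alox5 was at 41.9 CPM against 3.35 CPM, with a UMI in 33.9% of cells. In 4-week mouse 2, 4 of the 20 cells were typed Tuft and held 12 of 13 Ptgs1 and 16 of 19 Hpgds UMIs. The level of those genes there is thus that of 4 cells. The other 16 cells held 1 UMI of Ptgs1 (4.22 CPM) and 3 of Hpgds (12.7 CPM), too few to place either gene. Alox5ap was at 71.7 CPM in them. Ltc4s did not depend on the 4 cells, at 1603 CPM in the other 16. In the 114 cells of 2-week mouse 2 that were not typed Tuft, Ltc4s was at 987 CPM, Hpgds at 59.4 CPM and Ptgs1 at 46.3 CPM. The 20 cells of 4-week mouse 2 also limit what can be read there, since 3 UMIs would be 9.95 CPM. They held 2 UMIs of Alox5, 1 of Il17rb and 0 of Il25, all under that floor. The 118 cells of 2-week mouse 2 held 8 UMIs of Il17rb (2.50 CPM) and 4 of Il25 (1.25 CPM). All 5 enzyme genes were found together in 22.9% and 0% of the MucinDuctalProgenitor cells of these 2 mice. At an equal depth of 5000 UMIs per cell the expected shares were 0.932% and 0%. The label's markers were mixed: Pou2f3 was at 82.9 and 90.1 CPM against 0.986 to 3.91 CPM in MucinDuctal cells, the 12 mucin and ductal markers summed to 13645 and 17014 CPM against 43868 or more in MucinDuctal cells, and the tuft kinase gene Dclk1 was at 0 CPM in 1 mouse and 38.5 CPM in the other.

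Neurog3-positive EEC-Progenitor cells, the other early label, had little of any member. Ltc4s was again the highest, at 89.6 and 245 CPM in the 2-week mice and at 83.4 and 114 CPM in the 4-week mice, 3.14% to 8.68% of Tuft-3 cells. Over the 4 mice together most of it came from few cells. The 57 of 391 cells typed Tuft/EEC.Progenitor held 629 of 873 Ltc4s UMIs, at 706 CPM, against 52.3 CPM in the 333 cells typed EEC. By mouse the cells typed EEC were at 52.8 and 90.8 CPM after 2 weeks and at 5.95 and 13.5 CPM after 4 weeks. In 2-week mouse 1 they held 32 of 61 Ltc4s UMIs. Alox5 and Alox5ap stayed below 1% of the Tuft-3 level in each mouse.

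**Figure D2:**
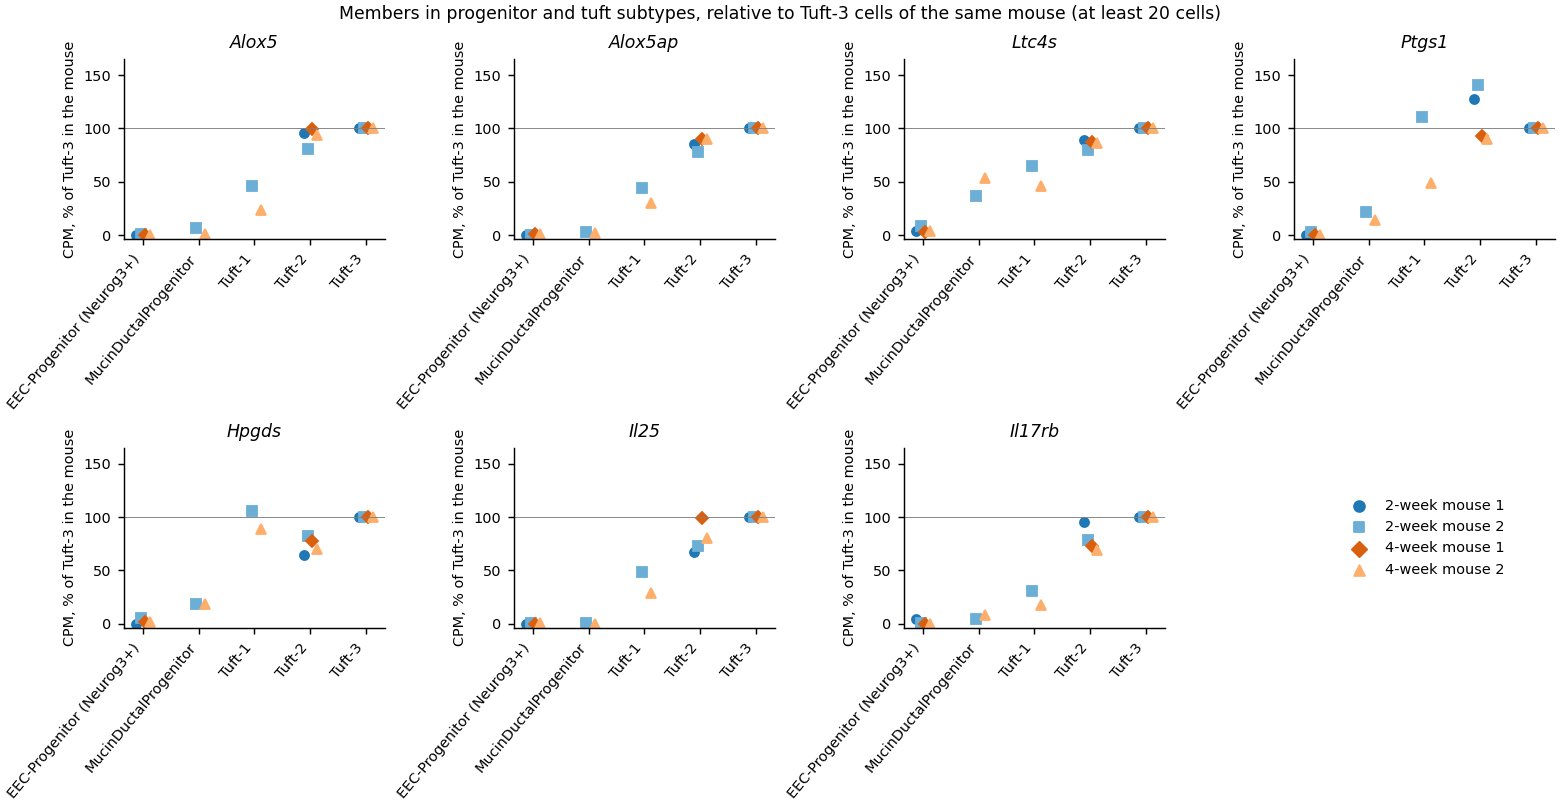
Level of each gene in 5 deposited subtypes as a percentage of its CPM in Tuft-3 cells of the same mouse, for subtypes with at least 20 cells in the mouse (points, coloured by duration of injury). MucinDuctalProgenitor cells reach 36.2% and 53.5% of the Tuft-3 level for Ltc4s and at most 21.2% for the other 6 genes. Tuft-1 cells are near 100% for Hpgds in both mice, and for Ptgs1 at 111% in 2-week mouse 2 and 48.5% in 4-week mouse 2.

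Single Tuft cells mostly carried the whole enzyme set. All 5 enzyme genes had a UMI in 84.0% to 89.6% of Tuft cells over the 4 mice, and the 3 leukotriene genes in 94.1% to 100%. In Acinar cells the 5 were found together in at most 0.686% of cells. At an equal depth of 5000 UMIs per cell, the expected share of Tuft cells with all 5 was 35.2% to 47.9% over the 4 mice, so the count per cell depends strongly on depth.

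Ltc4s had a median of 35 to 48 UMIs per Tuft cell and Alox5ap 40.5 to 57, and the 10% of cells with the most Ltc4s held 18.7% to 20.9% of its UMIs in each mouse. Il25 was more uneven, with 52.6% to 60.9% of its UMIs in the top 10% of cells. Its median was 1 UMI in each mouse, while the highest cell had 17 and 44 UMIs after 2 weeks and 45 and 53 after 4 weeks.

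Tuft cells with an Il25 UMI were compared with those without. The cells with Il25 were deeper in each mouse than those without, with medians of 19874.5 against 18927 UMIs in 2-week mouse 1, 21230.0 against 18762.5 in 2-week mouse 2, 15969 against 14326.5 in 4-week mouse 1 and 16900.0 against 13793 in 4-week mouse 2. A share of cells with a UMI rises with depth. A UMI of Il17rb was found in 46.0% of cells with and 33.3% without Il25 in 2-week mouse 1, in 54.2% and 41.3% in 2-week mouse 2, in 43.6% and 32.4% in 4-week mouse 1, and in 44.7% and 33.9% in 4-week mouse 2. By CPM, which takes depth into account, the ratio for Il17rb was 1.02 to 1.37. Ltc4s differed by 1.01-fold to 1.17-fold. For Hpgds the ratio of cells with to cells without Il25 was 0.994, 0.948, 0.960 and 1.18 in the same order of mice, the first a near tie. Over the 5 enzyme genes and 4 mice the ratio lay between 0.942 and 1.29, so no enzyme gene was restricted to either set of cells. The subtypes were not separated here, and they differed in Il25. Over all mice an Il25 UMI was found in 39.5% of Tuft-1, 66.1% of Tuft-2 and 62.8% of Tuft-3 cells.

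Of the other eicosanoid genes, 44 of the 45 listed were in the table and 13 reached 10 CPM in Tuft cells. Supply of arachidonic acid was represented by Pla2g4a, the cytosolic phospholipase A2, at 366 ± 22.3 CPM (SD, n = 4) with a UMI in 97.4% of cells, and at lower levels by Pla2g12a (52.0 CPM) and Pla2g6 (16.3 CPM). Among glutathione transferases related to Ltc4s, Mgst3 was at 519 ± 103 CPM and Mgst2 at 105 ± 12.0 CPM. The inducible cyclooxygenase Ptgs2 was at 15.8 ± 2.26 CPM. Prostaglandin E synthases were represented by Ptges3 (153 CPM) and Ptges2 (20.4 CPM), and prostaglandin inactivation by the dehydrogenase Hpgd (102 ± 34.7 CPM) and the carbonyl reductase Cbr1 (173 CPM). Lta4h, which makes leukotriene B4 in place of leukotriene C4, was at 12.9 CPM, Ggt1, which trims leukotriene C4, at 11.7 CPM, and the exporter Abcc1 at 11.0 CPM. No receptor for leukotrienes or prostaglandins reached 10 CPM.

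In the type 2 cytokine circuit 5 of 22 genes reached 10 CPM in Tuft cells. Il13ra1, a receptor chain for interleukins 4 and 13, was at 517 ± 7.70 CPM with a UMI in 98.7% of cells. The shared receptor chain Il4ra was at 28.3 ± 9.76 CPM and the transcription factor Stat6, which acts below it, at 36.1 ± 3.75 CPM. Il10rb was at 99.2 CPM and Rora at 10.8 CPM.

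The next question was whether the members changed between 2 and 4 weeks of injury. By edgeR's quasi-likelihood test with Benjamini-Hochberg adjustment at 0.05, none of the 7 members was called in Tuft, Tuft-2 or Tuft-3 cells. The background was low: 0% of 10967 genes were called in Tuft cells (739 had an unadjusted p under 0.05, and DESeq2 called 31), 0% of 8645 in Tuft-2 cells (338 unadjusted, DESeq2 0) and 0.114% of 9648 in Tuft-3 cells (11 genes, and 19 by DESeq2). No member was called under any alternative in these cells, whose fits rest on 2 mice per time point.

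In Tuft cells the CPM of Il25 did not overlap between time points (107 and 144 against 146 and 209), but 35.5% of all genes tested did not overlap either, and 2-week mouse 2 and 4-week mouse 1 were almost equal. The log2 change was 0.49 (SE 0.23, edgeR adjusted p = 0.786, alternatives 0.109 to 1.00). In Tuft-2 cells Il25 was at 88.8 and 143 CPM after 2 weeks and at 159 and 201 CPM after 4 weeks, a log2 change of 0.58 (SE 0.22, edgeR adjusted p = 1.00, alternatives 0.0514 to 1.00), where 32.1% of genes did not overlap. The lowest of those alternatives left out 2-week mouse 2 and gave a log2 change of 1.03. In Tuft-3 cells the Il25 values overlapped, at 132 and 196 against 160.4 and 249 CPM, with a log2 change of 0.28 (SE 0.28).

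Ptgs1 in Tuft-3 cells was at 173 and 221 CPM after 2 weeks and at 275 and 301 CPM after 4 weeks, without overlap, as in 36.1% of genes there. The log2 change was 0.52 (SE 0.17, edgeR adjusted p = 0.512, alternatives 0.179 to 1.00). In Tuft-2 cells Ptgs1 values overlapped, at 219.8 and 311 against 256 and 270.5 CPM. Il17rb in Tuft-2 cells was at 30.6 and 45.9 CPM against 32.6 and 29.8 CPM, with a log2 change of -0.41 (SE 0.24). The remaining members changed by between -0.20 and 0.22 on the log2 scale in these 3 labels, with edgeR adjusted p of 0.924 or more. These small values moved when single mice were left out: over the alternatives, for example, Il17rb in Tuft-3 cells ran from -0.44 to 0.44 (lowest adjusted p 0.557), Alox5 in Tuft-3 cells from -0.48 to 0.04 (lowest 0.597) and Ptgs1 in Tuft-2 cells from -0.24 to 0.26 (lowest 0.991).

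The share of Tuft cells with a UMI was set against the time points over mice with an exact permutation test (two-sided), whose smallest possible p for 2 against 2 is 0.333. Tuft cells were deeper after 2 weeks (medians 19652 and 20481 UMIs) than after 4 weeks (14809 and 15805.5). The share of Il25 was 59.4% ± 1.23 after 2 weeks and 57.0% ± 7.28 after 4 weeks (SD, n = 2 each, exact p = 1.0). That of Il17rb was 44.9% ± 5.59 and 39.4% ± 1.71 (exact p = 0.333, 0.778 after Benjamini-Hochberg adjustment over 7 genes). At an equal 5000 UMIs per cell the difference for Il17rb turned from -5.50 to 1.12 percentage points, and that for Il25 from -2.33 to 4.68.

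In EEC cells 2 members passed the filter on low counts, and neither was called in the fit of all mice (0% of 11869 genes, 478 unadjusted, DESeq2 13). Alox5ap was at 1.73 and 7.11 CPM after 2 weeks and at 11.8 and 8.12 CPM after 4 weeks, without overlap, as in 32.5% of genes (log2 change 1.24, SE 0.58, edgeR adjusted p = 0.986). Without 2-week mouse 2 its log2 change was 2.54, in a fit that rests on a lone 2-week mouse. Ltc4s was at 8.63 and 43.0 CPM after 2 weeks and at 10.5 and 9.52 CPM after 4 weeks, so 2-week mouse 2, the mouse with the highest member levels in Acinar cells, stands alone. Ltc4s in EEC cells of that mouse was mostly in 138 Neurog3-positive EEC-Progenitor cells, with 179 of 218 UMIs (90.8 CPM). The log2 change of Ltc4s in EEC cells was -1.95 without 2-week mouse 1 and 0.24 without 2-week mouse 2. Each of these fits also rests on a lone 2-week mouse.

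None of the other pathway genes was called in either direction in Tuft cells, with 16 of 45 eicosanoid and 10 of 22 type 2 cytokine genes tested. Their median log2 changes were -0.05 and -0.06, beside -0.01 over all genes and 0.12 over the 7 members. The smallest adjusted p belonged to Hpgd, which degrades prostaglandins, at 0.86 on the log2 scale (SE 0.15, edgeR adjusted p = 0.144). In Tuft-3 cells Hpgd changed by 0.79 (edgeR adjusted p = 0.126).

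**Figure D3:**
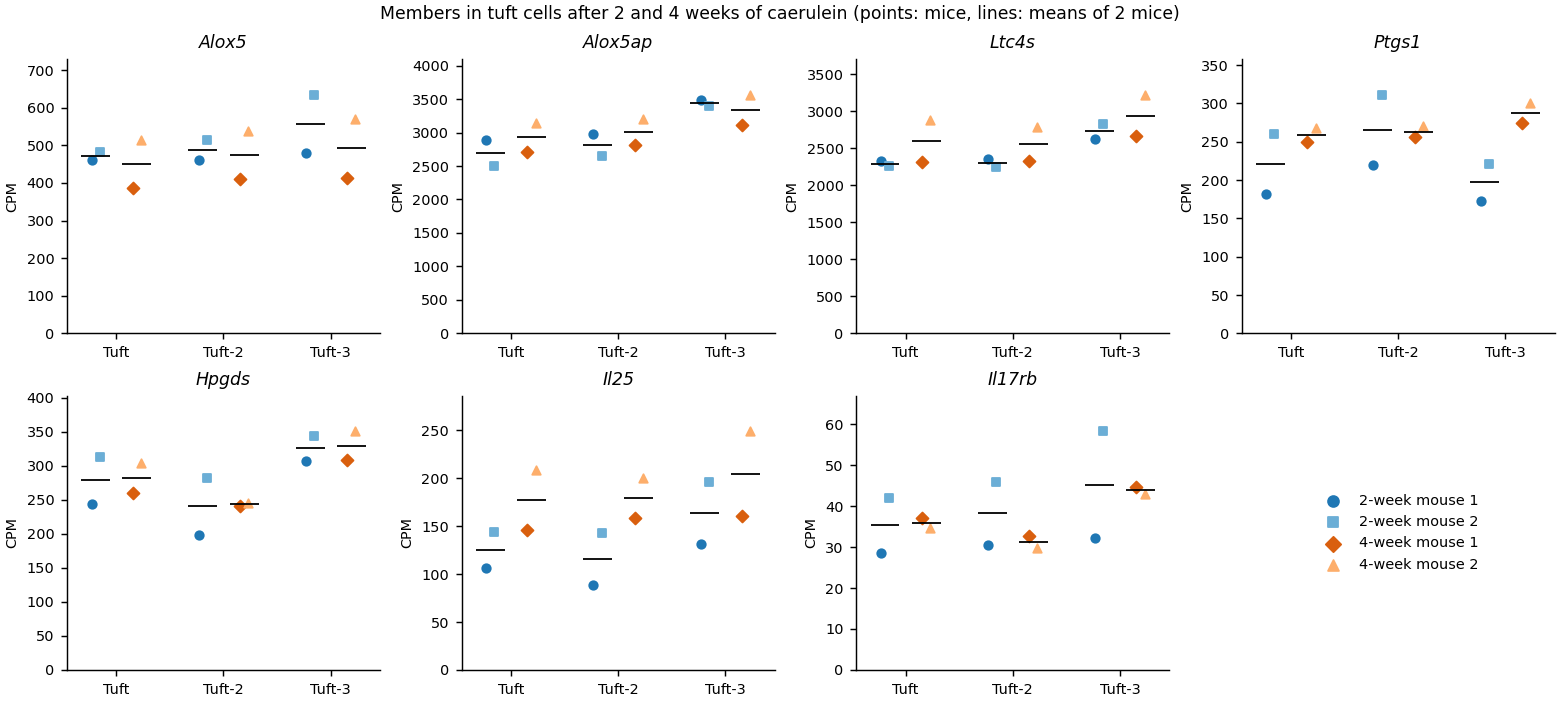
CPM of each gene in Tuft, Tuft-2 and Tuft-3 cells after 2 weeks (blue) and 4 weeks (orange) of caerulein, with a point per mouse and a line at the mean of 2 mice. Il25 does not overlap between time points in Tuft and Tuft-2 cells, nor Ptgs1 in Tuft-3 cells, and no gene passed the adjusted threshold.

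For comparison the members were read in the 7778 cells without a deposited type, which the authors left out of their EYFP-positive set. These cells were clustered without the members or the pathway genes, and 19 of 27 clusters could be named from fixed markers. The sort was for EYFP, but the share of cells with an EYFP UMI differed between clusters. It was 10.5% in macrophage-like, 9.90% in tuft-like and 33.3% in enteroendocrine-like cells. Acinar-like clusters of 660, 525 and 30 cells were at 0%, 0.381% and 73.3%. In 1247 macrophage-like cells (median 6810 UMIs) Alox5ap was at 221 and 249.9 CPM in the 2-week mice and at 274 and 269 CPM in the 4-week mice, with a UMI in 66.6% of cells. Hpgds was at 101 and 107 CPM in the 2-week mice and at 102 and 124 CPM in the 4-week mice. Both levels are below those of Tuft cells in every mouse. Alox5 was at 3.91 CPM over all macrophage-like cells and Il25 at 0.446 CPM, from 4 UMIs.

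Dendritic cell-like clusters (318 cells) had Alox5ap at 238 to 545 CPM over the mice, with Hpgds at 10.5 to 14.6 CPM. In 20 neutrophil-like cells (median 2198.5 UMIs, 12 of them from 2-week mouse 2) Alox5ap was at 1487 CPM, from 67 UMIs, with a UMI in 80.0%. Ltc4s was at 222 CPM (10 UMIs) and Ptgs1 at 111 CPM (5 UMIs) in these few cells, without a UMI of Hpgds. Ptgs1 was found in supporting cells that had little of the other members. It was at 101 to 193 CPM in 111 mesothelial-like cells, with a UMI in 63.1% of them, at 42.5 to 74.1 CPM in 702 fibroblast-like cells and at 38.6 to 160.4 CPM in 145 endothelial-like cells. No Hpgds UMI was counted in the 145 endothelial-like cells, at a median depth of 3815 UMIs. By the exact interval this allows up to 2.51% of cells with a UMI at that depth, and it does not limit the share that expresses Hpgds. Il17rb was at 0 UMIs in the mesothelial-like, fibroblast-like and endothelial-like cells.

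A tuft-like cluster of 101 shallow cells (median 1828 UMIs) also lacked a deposited type, and 90 of its cells came from 2-week mouse 2 and 4-week mouse 1. Over all of its cells Ltc4s was at 1449 CPM, Alox5ap at 1703 CPM, Alox5 at 385 CPM and Ptgs1 and Hpgds at 249 CPM each. Il25 was at 79.3 CPM and Il17rb at 35.5 CPM. The shares of cells with a UMI were lower than in deposited Tuft cells, 64.4% for Ltc4s and 9.90% for Il25, and so was the depth. With deposited Tuft cells cut to 1500 UMIs per cell the expected shares in them were 95.2% and 16.1%. Both are above the shares of the tuft-like cells, which are given at their own depth. The cause was not tested.

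**Figure D4:**
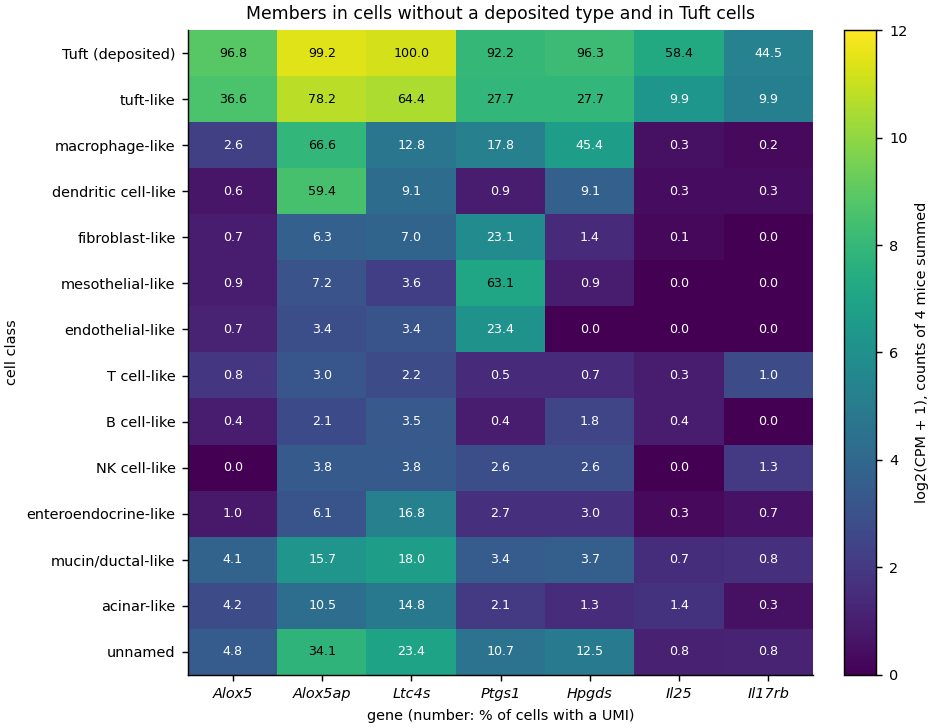
Colour gives log2(CPM + 1) of the counts summed over the 4 mice, by cell class (rows) and gene (columns), for deposited Tuft cells and for classes of the cells without a deposited type, and the number in each field is the percentage of cells with a UMI. Among the rows shown, Alox5 and Il25 are highest in the 2 tuft rows, Alox5ap and Hpgds are also found in macrophage-like cells (66.6% and 45.4%), and Ptgs1 in mesothelial-like cells (63.1%). Classes of few cells are not shown, such as the 20 neutrophil-like cells, in which Alox5ap was at 1487 CPM.

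The genes whose levels followed each member most closely were taken over 10 sums of mouse and tuft subtype, among 7908 genes with at least 10 CPM, by Pearson's r of log2(CPM + 1). The sums share mice and libraries, and the genes printed were picked as the highest of 7908 over only 10 sums. High values of r follow in part from that choice, so r is a description and was not tested. For Alox5ap these were Itpr3, the calcium channel gene of taste-type signalling (r = 0.993), Ms4a8a (0.988) and Trak1 (0.987). For Alox5 they were Cox6c (0.981), 2200002D01Rik (0.979) and 3110040N11Rik (0.977), and for Ltc4s Vkorc1 (0.977), Fbxo9 (0.977) and Pgp (0.976). Il17rb was followed by Atp5e (0.980), Dpysl2 (0.979) and Matk (0.971), and Il25 by Atp6v1g1 (0.938), Atp6v1c1 (0.938) and Ufm1 (0.937). The closest genes were Pkig (0.933), Haus7 (0.924) and Tor1a (0.921) for Ptgs1 and Cdc25b (0.939), Lrp6 (0.919) and C330007P06Rik (0.919) for Hpgds.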

How the data were processed

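Counts of UMIs were deposited by the authors without normalization, from 10x Genomics 3' libraries of sorted EYFP-positive cells, and the count tables of typed cells and of tuft and enteroendocrine cells hold the same values as the merged one. Cell Ranger 4.0.0, Seurat 3.2.3 and mm10 are named in the submitters' processing notes. Cell names were joined to mice by their sample suffix. Counts were summed per mouse and deposited label and divided by the sum's total for CPM, and labels under 20 cells in a mouse were left out of summaries. Each mouse is 1 replicate (n = 2 per time point). Levels between types carry no test. Time was tested with edgeR 4.0.16 (quasi-likelihood, robust, TMM, filterByExpr) in R 4.3.3, adjusted over all genes of a label. The SE beside a log2 change was worked back from this test, as the size of the change over the square root of the F statistic. DESeq2 1.42.0, RLE size factors, no gene filter, a fit that is not robust, a minimum of 3000 UMIs and leaving out each mouse were alternatives. Shares of cells depend on depth, so expected shares at 1500 and 5000 UMIs were computed exactly. Intervals (95%, Clopper-Pearson) cover counting error only. No doublet caller was run and no cell was removed. For cells without a type, scanpy 1.11.5 made the clusters at resolution 0.6 from 30 components of 2000 variable genes. A class name needed 3 or more markers (log2 fold 1 or above over the other cells, found in 20% of the cluster), of which 1 or more among the top 10 genes, and no other class with more there. The fits were tested on simulated counts: of 200 genes changed 4-fold, 193 were recovered in Tuft, 186 in Tuft-2, 189 in Tuft-3 and 186 in EEC cells. In the same order, 10, 4, 7 and 8 unchanged genes were called. All genes of a label were simulated with a common dispersion. Smaller changes, such as those of the members in the tuft labels, were not simulated, so the recovery does not apply to them. The named genes are the 7 members, pathway genes of at least 10 CPM in Tuft cells, 3 closest genes per member and cell type markers. Members, lists and rules were chosen with earlier results of these data known. Positions come from GENCODE M21 (GRCm38) and RefSeq windows (GRCm38.p6). The split of early subtypes by type and the shares over all genes beside counts of members by label were added after the data were seen.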

Additional observations from a re-analysis of the deposited data

Results flagged for a closer look

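Ptgs1 relative to Tuft-2 cells differed between the time points. Its Tuft-3 level was 78.6% and 71.1% of the Tuft-2 level after 2 weeks and 107% and 111% after 4 weeks, so that every mouse of each time point moved the same way and the time points moved oppositely. The mean log2 ratio was 0.55 higher at 4 weeks than at 2 weeks. This difference was not tested. Of 7838 genes with at least 10 CPM, 7.48% had opposite signs between time points in the same way. Without regard to sign, this ratio did not overlap between time points for 4 of the 7 members (Ptgs1, Alox5ap, Il25 and Il17rb), as for 36.5% of those genes.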

How the results depend on the processing

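No paired analysis was possible because the replicate numbers only name the mice and pair none of them. The counts of genes called over time depended on the setting. Without the gene filter 266 genes were called in Tuft, 62 in Tuft-2, 187 in Tuft-3 and 74 in EEC cells. DESeq2 called 31 in Tuft, 19 in Tuft-3 and 13 in EEC cells, and the fit that is not robust called 5 in Tuft-3 cells. Leaving out each mouse in turn gave 5 to 273 genes in Tuft, 1 to 124 in Tuft-2, 3 to 303 in Tuft-3 and 0 to 366 in EEC cells, where the lone mouse of a time point is assumed to vary like the pair of the other. The cause was not tested.

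The signs of small changes turned when 1 mouse was left out. Over those fits the log2 change in Tuft cells ran from -0.31 to 0.14 for Alox5 (positive without 4-week mouse 1), from -0.012 to 0.24 for Alox5ap and from -0.010 to 0.34 for Ltc4s (both negative without 4-week mouse 2), from -0.0023 to 0.50 for Ptgs1 (negative without 2-week mouse 1), from -0.14 to 0.21 for Hpgds (-0.14 without 2-week mouse 1 and -0.12 without 4-week mouse 2) and from -0.23 to 0.31 for Il17rb (positive without 2-week mouse 2). For Il17rb in Tuft-2 cells it ran from -0.56 to 0.015 (positive without 2-week mouse 2), for Il25 in Tuft-3 cells from -0.090 to 0.65 (negative without 4-week mouse 2), and for Ltc4s in EEC cells from -1.95 to 0.24 (positive without 2-week mouse 2). The ratio of Tuft to MucinDuctal cells kept its direction for all 7 genes under 49 of 49 alternatives, and the number of members highest in Tuft cells did not change. Shares of Tuft cells with a UMI depended on depth, far more for Il17rb than for Ltc4s. At 1500 UMIs per cell (4 of 1280 cells left out as shallower) the share of Il17rb went from 42.2% to 5.25% and that of Ltc4s from 100% to 95.2%.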

Other observations

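Among the cells without a deposited type, the unnamed clusters with the highest levels of Ltc4s and of Alox5ap are described here. They were singled out after their values were seen. In a cluster of 253 cells (median 5067 UMIs) in which all 10 macrophage markers were raised and whose leading genes included Cd209f, Cd163, Fcna and Folr2, Ltc4s was at 569.8 CPM with a UMI in 70.4% of cells, against 25.1 CPM and 12.8% in macrophage-like cells. Alox5ap was at 462 CPM, Hpgds at 155 CPM, Ptgs1 at 78.3 CPM and Alox5 at 42.5 CPM in it, while Il25 and Il17rb were at 0 UMIs. Of its cells 128 came from 2-week mouse 2. A second cluster of 129 cells, led by genes that included Cd209a and Ear2, had Alox5ap at 799 CPM with a UMI in 82.2% of cells, but Ltc4s at 6.81 CPM and Hpgds at 1.95 CPM. Lower levels were found in other unnamed clusters, such as Alox5ap at 134 CPM in 29 cells and at 91.3 CPM in 68 cells. A cluster of 30 acinar-like cells (median 15727.5 UMIs), all from 4-week mouse 2, held several members at once: Ltc4s at 121 CPM with a UMI in 86.7% of cells, Alox5ap at 79.6 CPM in 80.0%, Il25 at 29.9 CPM in 40.0% (15 UMIs) and Alox5 at 9.95 CPM in 16.7%. An unnamed cluster of 38 cells, 36 of them from that mouse, had Ltc4s at 88.9 CPM, Alox5ap at 51.5 CPM and Il25 at 23.4 CPM (5 UMIs). The part of RNA from outside the cell in these values was not tested.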
